A study of Drosophila melanogaster with 6 samples.

Results

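The ecdysone receptor and the transcription factors that respond to it were followed as 8 genes, taken by their FlyBase identifiers from the 17493 genes of the matrix. They were EcR (FBgn0000546), usp (FBgn0003964), br (FBgn0283451), Eip74EF (FBgn0000567), Eip75B (FBgn0000568), ftz-f1 (FBgn0001078), Hr39 (FBgn0261239) and Hr4 (FBgn0264562). All 8 were measured in every library and all 8 passed the filter on low values in every comparison. EcR lies on chromosome arm 2R, Hr39 on 2L, Eip74EF, Eip75B and ftz-f1 on 3L, and usp, br and Hr4 on X.

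RNA was measured in Drosophila melanogaster follicle cells that expressed human AKT1, a growth kinase, under the traffic jam-GAL4 driver, a driver of the ovary's somatic cells. The groups were LP (TJ-Gal4 crossed to the empty landing pad line, no AKT1), WT (AKT1 WT), T1, T15 and T5 (AKT1 with in-frame tandem duplications in the pleckstrin homology domain) and Q79K-W80R (AKT1 with both substitutions). Every group carried the driver and the 51C landing pad line, every AKT1 form was a FLAG-tagged UAS transgene inserted there, and each form was represented by 1 insertion line, so that a line and its AKT1 form cannot be told apart. Each group had 3 libraries, each made from ovaries pooled from the progeny of its own cross, 18 libraries in all, and the age of the flies is not given in the sources used here.

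Ecdysone is the steroid hormone of insects. It enters cells through an importer and binds EcR, which works as a pair with usp, the fly counterpart of the vertebrate retinoid X receptor. The bound pair switches on early genes: br, which encodes zinc finger proteins, Eip74EF, which encodes ETS domain proteins, and Eip75B, a heme-binding nuclear receptor that opposes another receptor, Hr3. Hr4, ftz-f1 and Hr39 are nuclear receptors that act in the later steps of the response, and in pupae ftz-f1 makes tissues competent for the next hormone pulse. In the ovary the pathway is known for its parts in egg chamber progression, eggshell formation and ovulation.

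The values were normalized counts, that is, estimated read counts per gene after the authors' scaling between libraries, and they totalled from 23572559 to 34164960 per library with a median of 25547335. The follicle cell label was met by tj, the gene of the driver, at 8521 to 20471 normalized counts. RNA of other cells was present too: the oocyte gene osk stood at 4116 to 15596, the muscle gene Mhc at 103 to 2054 and the digestive enzyme gene alphaTry at 0 to 927. Among replicates, T1 replicate 3 and T5 replicate 2 stood apart from their groups. Over the 8 genes, T1 replicate 3 lay 0.93 (root mean square, log2) from the other T1 libraries and 0.15 from T15, and T5 replicate 2 lay 0.36 from the other T5 libraries and 0.14 from LP. WT replicate 1 lay almost as far (0.33) from the other WT libraries, though no other group was nearer. LP replicate 2 (0.24) was nearer T15 (0.14), and T15 replicate 1 (0.23) was nearer LP (0.21). T1 replicates 1 and 2 (0.53 and 0.51) were nearer Q79K-W80R (0.35 and 0.39). Several test results are given with and without T1 replicate 3 and T5 replicate 2, and correlations only over all 18 libraries. The distances use the same 8 genes, so calls of the 8 without these libraries are not independent support. The unit is bulk RNA, so a lower value cannot separate fewer cells of a type from less RNA per cell.

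All 8 genes were well expressed, between the 75.8 and the 98.4 percentile of all genes in every library. Per kilobase of annotated exon, a scale on which genes can be set side by side, Eip75B had the highest mean over the 18 libraries (551 normalized counts per kb), followed by br (387), usp (370) and ftz-f1 (360.0), and Hr4 had the lowest (189). The order was not the same in all groups. In WT the gene highest per kb was ftz-f1 (609), and in Q79K-W80R it was Eip75B (684). Exons of these genes join into several transcripts, from 2 for usp to 16 for br, and the values do not separate them. Exons on the other strand overlap usp (CG4313, 196 bases), br (Mur2B, 189) and Hr4 (PIG-K, 46), and whether counting used the strand is not given in the sources used here.

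**Figure D1:**
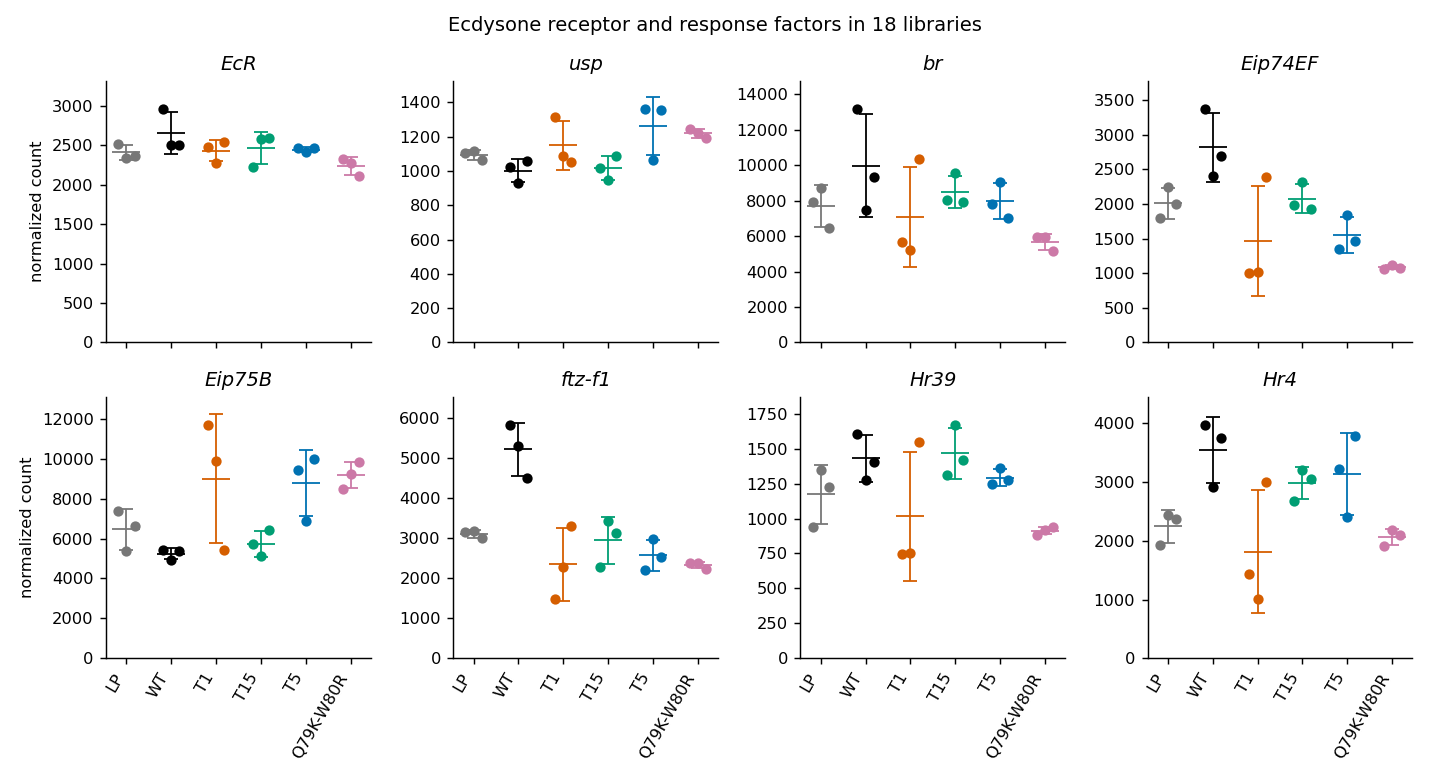
Normalized count of each of the 8 genes in each library. Points are the 3 libraries of a group in their replicate order, the long bar is the mean and the whiskers are 1 SD. The WT points of ftz-f1 (4513 to 5840) sit above all other libraries, and the WT means of usp (1002) and Eip75B (5250.4) are the lowest of the 6 groups.

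Over the 6 groups together, 4 of the 8 genes differed (limma moderated F test, adjusted p under 0.05), against 21.3% of all genes tested. They were ftz-f1 (adjusted p = 0.00865), Eip74EF (adjusted p = 0.0106), Eip75B (adjusted p = 0.0384) and Hr4 (adjusted p = 0.0498). The others were Hr39 (adjusted p = 0.0827), usp (0.0979), br (0.14) and EcR (0.289). Those of ftz-f1 and Eip74EF held on leaving out any single library. Those of Eip75B and Hr4 were lost for most libraries, with adjusted p up to 0.082 and 0.0958. Without T1 replicate 3 the F test called 7 of the 8, all but EcR (adjusted p = 0.215), and 4410 genes in place of 2067. The main fit tested 9691 genes.

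The receptor genes differed little between groups. EcR, which binds the hormone, had 2525, 2346 and 2365 normalized counts in LP, 2962, 2501 and 2512 in WT, and 2333, 2273 and 2115 in Q79K-W80R. In T1 it ran from 2283 to 2545, in T15 from 2233 to 2589 and in T5 from 2418 to 2465. Its coefficient of variation over the 18 libraries was 7.51%, the lowest of the 8 genes, and its libraries overlapped between neighbouring groups except that the lowest LP value lay above the highest Q79K-W80R value. The mutants vs WT Log2FC was -0.15 (95% interval -0.30 to 0.01, adjusted p = 0.255).

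The partner gene usp went the other way in value. It had 1021, 928 and 1058 normalized counts in WT, 1102, 1116 and 1061 in LP, 1314, 1089 and 1049 in T1, 1361, 1065 and 1356 in T5, and 1243, 1223 and 1193 in Q79K-W80R. T15 (1016, 947 and 1087) overlapped WT. All 3 Q79K-W80R libraries lay above all WT and all LP libraries, and usp rose against WT (Log2FC 0.29 ± 0.08 SE, adjusted p = 0.0467). This call was near its threshold. It was lost in 4 of 6 leave-one-out fits, with adjusted p up to 0.188, and with the TMM rescaling (adjusted p = 0.0575). In T5 the Log2FC against WT was 0.32 (adjusted p = 0.215). The gene shares 265 exon bases with Actn on the same strand, so some of its reads may be assigned to either gene. Actn stood at 3689 to 5743 normalized counts and its own mutants vs WT Log2FC was -0.32 (adjusted p = 0.161).

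Of the early genes, Eip74EF spread widest between groups. It had 3373, 2406 and 2687 normalized counts in WT, 1791, 2239 and 1998 in LP, and 1061, 1118 and 1082 in Q79K-W80R. T15 had 1989, 2316 and 1925, T5 had 1356, 1848 and 1463, and T1 had 1000, 1024 and 2386. All 12 mutant libraries lay below the lowest WT library, and all 3 WT libraries lay above all LP libraries. Pooled, the mutants vs WT Log2FC was -0.93 ± 0.27 SE (adjusted p = 0.0668), which missed the threshold. With T1 replicate 3 and T5 replicate 2 both left out, an alternative chosen after the data were seen, it was -1.03 (adjusted p = 0.0372). Q79K-W80R stood lowest, and there Eip74EF fell against WT (Log2FC -1.36 ± 0.13 SE, adjusted p = 0.000517) and against LP (-0.88 ± 0.08 SE, adjusted p = 0.00015). Every leave-one-out fit kept both of these calls.

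The zinc finger gene br was the most variable within WT, with 13173, 7451 and 9327 normalized counts. LP had 7906, 8742 and 6454, T1 had 5657, 5233 and 10360, and Q79K-W80R had 5936, 5926 and 5148. T15 (8027, 9554 and 7923) and T5 (7805, 9057 and 7036) overlapped both controls. Only Q79K-W80R lay wholly below WT and below LP, and br fell there against WT (Log2FC -0.78 ± 0.20 SE, adjusted p = 0.0289) and against LP (-0.43 ± 0.11 SE, adjusted p = 0.0221). Both calls were lost in several leave-one-out fits, with adjusted p up to 0.115 against WT and up to 0.0862 against LP.

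Eip75B was the early gene that was high where the others were low. It had 5445, 4941 and 5365 normalized counts in WT, 7400, 5371 and 6628 in LP, and 8511, 9229 and 9840 in Q79K-W80R. T5 had 9465, 6894 and 9982, T1 had 11714, 9890 and 5427, and T15 had 5727, 5118 and 6421. Of the 12 mutant libraries 10 lay above the highest WT library, the exceptions being T1 replicate 3 and T15 replicate 2. In Q79K-W80R Eip75B rose against WT (Log2FC 0.81 ± 0.08 SE, adjusted p = 0.000783) and against LP (0.52 ± 0.12 SE, adjusted p = 0.0114). The call against LP went without Q79K-W80R replicate 3 (adjusted p = 0.0504). In T5 the Log2FC against WT was 0.72 (adjusted p = 0.0687), and without T5 replicate 2 it was 0.89 (adjusted p = 0.0106).

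Since both early genes come from the same library, their ratio does not depend on the scaling between libraries. The ratio of Eip75B to Eip74EF was 1.61, 2.05 and 2.00 in WT and 4.13, 2.40 and 3.32 in LP. It was 8.02, 8.26 and 9.10 in Q79K-W80R, 11.7, 9.65 and 2.27 in T1, 6.98, 3.73 and 6.82 in T5, and 2.88, 2.21 and 3.34 in T15. Every mutant library had a higher ratio than every WT library, and T15 overlapped LP. The ratio was chosen after the values were seen and carries no test.

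**Figure D2:**
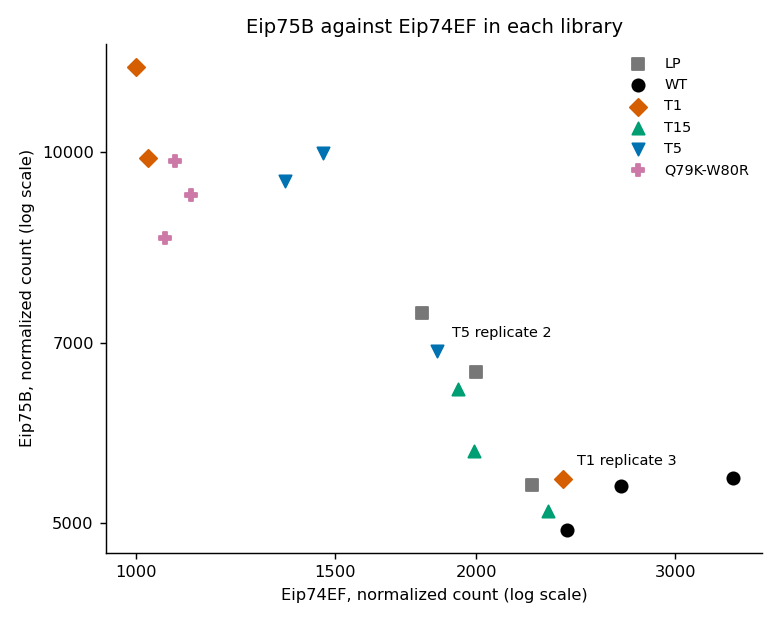
Eip75B against Eip74EF, both as normalized counts on log axes, 1 point per library. WT lies at the lower right, Q79K-W80R and 2 of the T1 libraries at the upper left, and T1 replicate 3 (2386 and 5427) and T5 replicate 2 (1848 and 6894) lie near the LP and T15 points.

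The nuclear receptor gene ftz-f1, like Eip74EF, was higher in every WT library than in any other library. Its WT libraries had 5840, 5318 and 4513 normalized counts. LP was tight at 3167, 3175 and 2997, and the mutant groups had 1471, 2271 and 3302 (T1), 2286, 3426 and 3127 (T15), 2206, 2985 and 2532 (T5) and 2385, 2371 and 2235 (Q79K-W80R). No library of any other group reached the lowest WT library. Of the 8 genes it was the only 1 called in mutants vs WT, against 4% of all genes tested, and it ranked at place 43 of 9605 genes by p. The libraries of the 2 sides did not overlap for 2 of the 8 genes, ftz-f1 and Eip74EF, against 4.31% of all genes. The pooled call of ftz-f1 was lost without WT replicate 1 (adjusted p = 0.0781) and without the form Q79K-W80R (adjusted p = 0.0532).

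By form, ftz-f1 fell against WT in Q79K-W80R (Log2FC -1.16 ± 0.11 SE, adjusted p = 0.000486) and in T5 (-1.02 ± 0.15 SE, adjusted p = 0.0487). The T5 call was at its threshold and was lost when any library but T5 replicate 2 was left out (adjusted p from 0.0755 to 0.258). In T15 the Log2FC was -0.84 (adjusted p = 0.0916, and 0.0473 with the library number as a block), and in T1 it was -1.22 (adjusted p = 0.282, and 0.0181 without T1 replicate 3). The 4 forms did not differ from each other by the F test (adjusted p = 0.573). Set against LP, the WT Log2FC was 0.74 ± 0.11 SE with an interval of 0.47 to 1.01, and its adjusted p of 0.0508 was just past the threshold. It was under the threshold with a pseudocount of 5 (0.0441), without the filter (0.0411), after quantile normalization (0.0428) and without WT replicate 3 (0.039). It was above it with a pseudocount of 0.5 (0.0519), a mean of at least 50 (0.0511), TMM rescaling (0.0543), all 18 libraries in the fit (0.0816), no trend (0.112) and the library number as a block (0.127), and in the other 5 leave-one-out fits (0.0812 to 0.235). Against LP ftz-f1 fell in Q79K-W80R (Log2FC -0.42 ± 0.06 SE, adjusted p = 0.000907), a call that was lost with all 18 libraries in the fit (adjusted p = 0.246). It was not called in T1, T15 or T5 vs LP, although it was in T1 without T1 replicate 3 (-0.77, adjusted p = 0.0393) and in T5 without T5 replicate 2 (-0.40, adjusted p = 0.0342).

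An annotated noncoding gene, lncRNA:CR45939, shares 2521 exon bases with ftz-f1 on the same strand. It stood at 180 to 192 normalized counts in WT, 14.5 to 52.3 in LP and 15.6 to 168 in the mutants. Muscle RNA was also high in 2 of the 3 WT libraries. The mean over the list (log2) ran from 7.49 to 9.31 in WT, 7.06 to 7.61 in LP and 7.53 to 8.08 in T5. WT replicate 3 (7.49) lay below LP replicate 3 (7.61) and below every T5 library. By group it was 8.34 in WT, 7.76 in T5, 7.30 in LP, 7.23 in T15, 6.94 in Q79K-W80R and 6.55 in T1. Mhc stood at 692, 2054 and 396 in the WT libraries. Within WT the most ftz-f1 was in replicate 1 and the most Mhc in replicate 2, and 3 libraries cannot show how they are related. Over the 18 libraries ftz-f1 had Pearson r = 0.72 with the muscle mean, and 0.48 after centring on group means, but Spearman rho was only 0.40. By group mean ftz-f1 ran, from high to low, WT, LP, T15, T5, T1 and Q79K-W80R, an order unlike that of the muscle mean. The midgut mean (log2) ran from 0.396 to 9.33 in WT and from 6.95 to 9.06 in LP, and alphaTry was listed at 0 in all Q79K-W80R libraries. The part of other cells, or of the shared exons, in the ftz-f1 values was not tested.

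Hr4, a nuclear receptor that in larvae times the response to the hormone, had 3977, 2919 and 3758 normalized counts in WT, 1922, 2444 and 2379 in LP, 1915, 2188 and 2096 in Q79K-W80R, and 1438, 1014 and 3001 in T1. T15 (2674, 3204 and 3058) and T5 (3219, 2410 and 3793) overlapped WT. All WT libraries lay above all LP libraries (Log2FC 0.65 ± 0.15 SE, adjusted p = 0.125). Hr4 fell in Q79K-W80R against WT (Log2FC -0.77 ± 0.13 SE, adjusted p = 0.00537) and rose in T15 against LP (0.41 ± 0.11 SE, adjusted p = 0.0373). The T15 call was lost in 5 of 6 leave-one-out fits.

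Hr39, a close relative of ftz-f1 that recognises similar DNA sites and is known for its part in ovulation, had 1605, 1276 and 1408 normalized counts in WT, 939, 1351 and 1227 in LP, and 885, 916 and 940 in Q79K-W80R. T1 had 745, 750 and 1552, while T15 (1315, 1671 and 1419) and T5 (1246, 1359 and 1273) overlapped WT. Hr39 fell in Q79K-W80R against WT (Log2FC -0.64 ± 0.10 SE, adjusted p = 0.00443). Against LP its Log2FC there was -0.34 (adjusted p = 0.068).

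**Figure D3:**
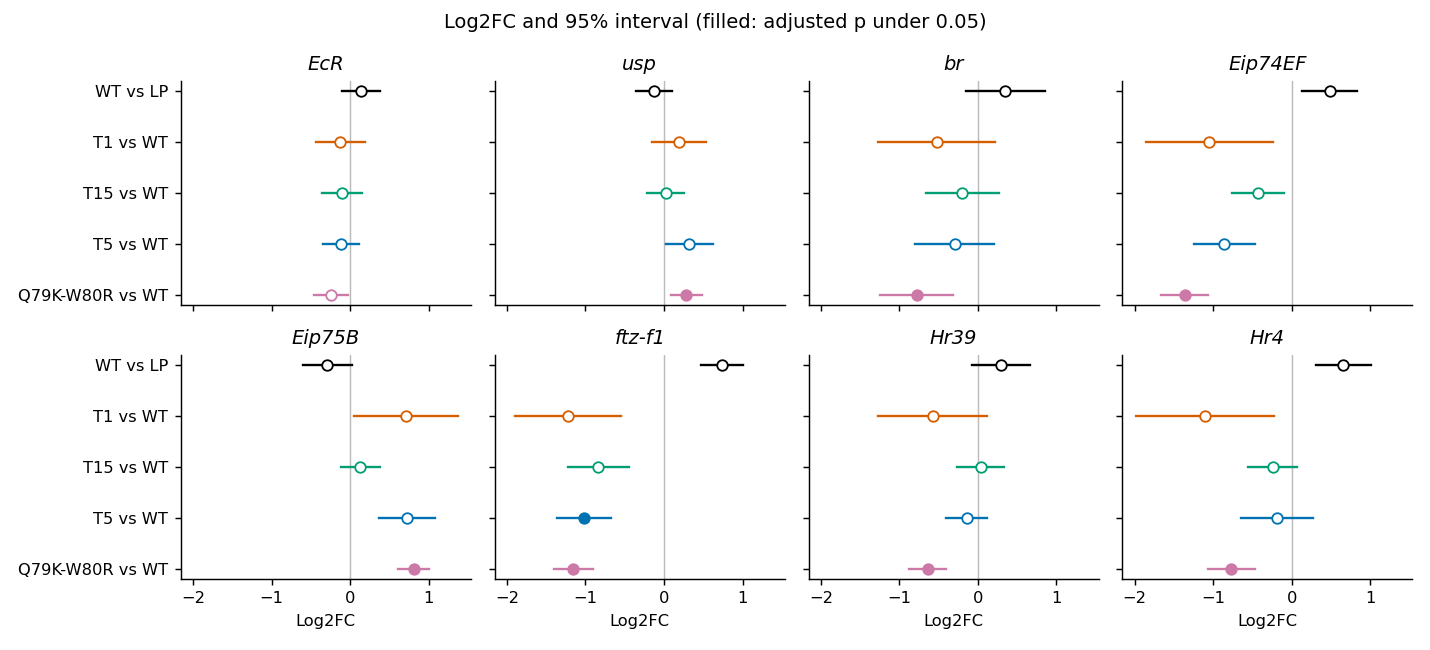
Log2FC (point) and 95% interval (line) of each gene for WT vs LP and for each mutant form vs WT, all from limma with 3 libraries a side. Filled points have an adjusted p under 0.05: 7 genes in Q79K-W80R, ftz-f1 in T5 and none in WT vs LP, T1 or T15. The WT libraries are shared by all 5 comparisons.

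Read by comparison, Q79K-W80R vs WT called 7 of the 8 genes, against 23.1% of all genes tested: br, Eip74EF, ftz-f1, Hr39 and Hr4 fell, usp and Eip75B rose, and EcR was not called (Log2FC -0.24, adjusted p = 0.108). The libraries did not overlap for 8 of the 8 genes, against 43.1% of all genes. The median Log2FC of the 8 was -0.71 and that of all genes was 0.00. Leaving out single libraries gave 5 to 7 called. Q79K-W80R vs LP called 4 of the 8, br, Eip74EF, Eip75B and ftz-f1, against 31.4% of all genes tested, a share that is not far from the background, and 6 did not overlap, against 48.4%. Without Q79K-W80R replicate 3 it called 2, Eip74EF and ftz-f1. With all 18 libraries in the fit it called Eip74EF alone (adjusted p = 0.0274), and br (0.254), Eip75B (0.143) and ftz-f1 (0.246) were not called.

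The 3 duplication forms called fewer. T5 vs WT called ftz-f1, 1 of the 8 against 0.725% of all genes tested, and T15 vs WT (0.315% of all genes) called none of the 8, with 2 at an unadjusted p under 0.05. T1 vs WT called no gene at all (0%), and 4 of the 8 had an unadjusted p under 0.05. Without T1 replicate 3 it called 697 genes, among them 5 of the 8: Eip74EF (Log2FC -1.46), ftz-f1 (-1.51), Hr39 (-0.93), Hr4 (-1.54) and Eip75B (1.04), with adjusted p from 0.0134 to 0.0213. The other 5 leave-one-out fits of T1 vs WT called no gene, and the main fit tested 9175 genes. Against LP, T15 called Hr4 alone (1 of 8, against 21.8%), while T1 (0.998%) and T5 (3.76%) called none, with 0 and 4 of the 8 at an unadjusted p under 0.05. Without T1 replicate 3, T1 vs LP called 4 of the 8, and 1399 genes in place of 91. Without T5 replicate 2, T5 vs LP called 5 of the 8, and 972 genes in place of 340. The main fits tested 9117 genes in T1 vs LP and 9043 in T5 vs LP. In the other 5 leave-one-out fits of each, none of the 8 was called. The comparisons share the WT or the LP libraries, so their calls are not separate evidence.

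WT vs LP called none of the 8, against 0.419% of all genes tested, with 3 at an unadjusted p under 0.05 (Eip74EF, ftz-f1 and Hr4). Libraries did not overlap for 4 of the 8, usp, Eip74EF, ftz-f1 and Hr4, against 22.5% of all genes. Among the 4 mutant forms the F test called none of the 8, against 2.45% of all genes tested, and 3 had an unadjusted p under 0.05 (Eip74EF, Hr39 and Hr4). With T1 replicate 3 left out it called 5 (br, Eip74EF, Eip75B, Hr39 and Hr4, adjusted p from 0.000385 to 0.00538) among 3784 genes, and with T5 replicate 2 left out instead it called none. The main fit of the 4 forms tested 9396 genes and called 230.

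Across the 18 libraries, br, Eip74EF, ftz-f1, Hr39 and Hr4 varied together to differing degrees, and Eip75B varied against them. Eip74EF and Eip75B had Pearson r = -0.92 and Spearman rho = -0.90 over 18 libraries, and r = -0.87 after each value was centred on its group mean. Eip74EF and Hr39 had r = 0.87, and 0.95 after centring. Eip74EF and br had r = 0.89, Hr39 and Hr4 had 0.87, and usp and Eip75B had 0.85. After centring on the group means these were 0.88, 0.83 and 0.69. Other pairs were weaker: br and ftz-f1 had r = 0.72 (0.64 centred) and ftz-f1 and Hr4 had 0.61 (0.42 centred). Eip75B and Hr4 had r = -0.57 (-0.48 centred). EcR was less tied to usp (r = -0.28) than to br (0.76). These are descriptions over libraries that share groups, controls and scaling. The correlations were not repeated without T1 replicate 3 or T5 replicate 2.

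Most of the 8 genes also varied with the genes of the eggshell and of follicle cells, Eip74EF and Eip75B in opposite directions. Eip74EF had r = 0.87 with the mean of 8 vitelline membrane genes, 0.88 with that of 9 chorion genes and 0.94 with that of 6 follicle cell genes, and Eip75B had -0.89, -0.91 and -0.87. Centred on group means the chorion values of Eip74EF and Eip75B were 0.79 and -0.83. The tie was not particular to them. With the vitelline membrane, chorion and follicle cell means Hr39 had 0.87, 0.77 and 0.92, and ftz-f1 had 0.81, 0.84 and 0.76. On the same lists br had 0.76, 0.74 and 0.84, usp had -0.79, -0.82 and -0.56, and EcR had 0.47, 0.40 and 0.51. Centred, the chorion values were 0.66 (Hr39), 0.87 (ftz-f1), 0.61 (br), -0.81 (usp) and 0.09 (EcR). Hr4 was less tied to the eggshell means, with 0.57 for chorion (0.30 centred) and 0.69 for vitelline membrane (0.45 centred). With the follicle cell mean Hr4 had 0.83 (0.85 centred). With the means of other cell types the r of Eip74EF and Eip75B was -0.12 and 0.27 (germline), 0.18 and -0.13 (midgut) and 0.52 and -0.48 (muscle). Centred on group means these were -0.26 and 0.50 (germline), -0.58 and 0.25 (midgut) and 0.07 and -0.31 (muscle). The chorion mean (log2) lay between 13.6 and 14.3 in WT, 13.5 and 13.6 in LP, 13.7 and 13.8 in T15, and 12.3 and 12.4 in Q79K-W80R. In T1 it ran from 10.4 to 13.8 and in T5 from 12.3 to 13.7, and the highest library of each was T1 replicate 3 and T5 replicate 2. A list of 8 follicle stage factors did not follow the chorion order. Its group means (log2) were 11.126 in WT, 11.115 in T1, 11.016 in LP, 10.987 in Q79K-W80R, 10.983 in T5 and 10.728 in T15. In Q79K-W80R vs WT 2 of these factors were called higher and 3 lower, against 23.1% of all genes called. Chorion and vitelline genes mark egg chamber stages, and the part of the stage mix in the values of the 8 genes was not tested.

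**Figure D4:**
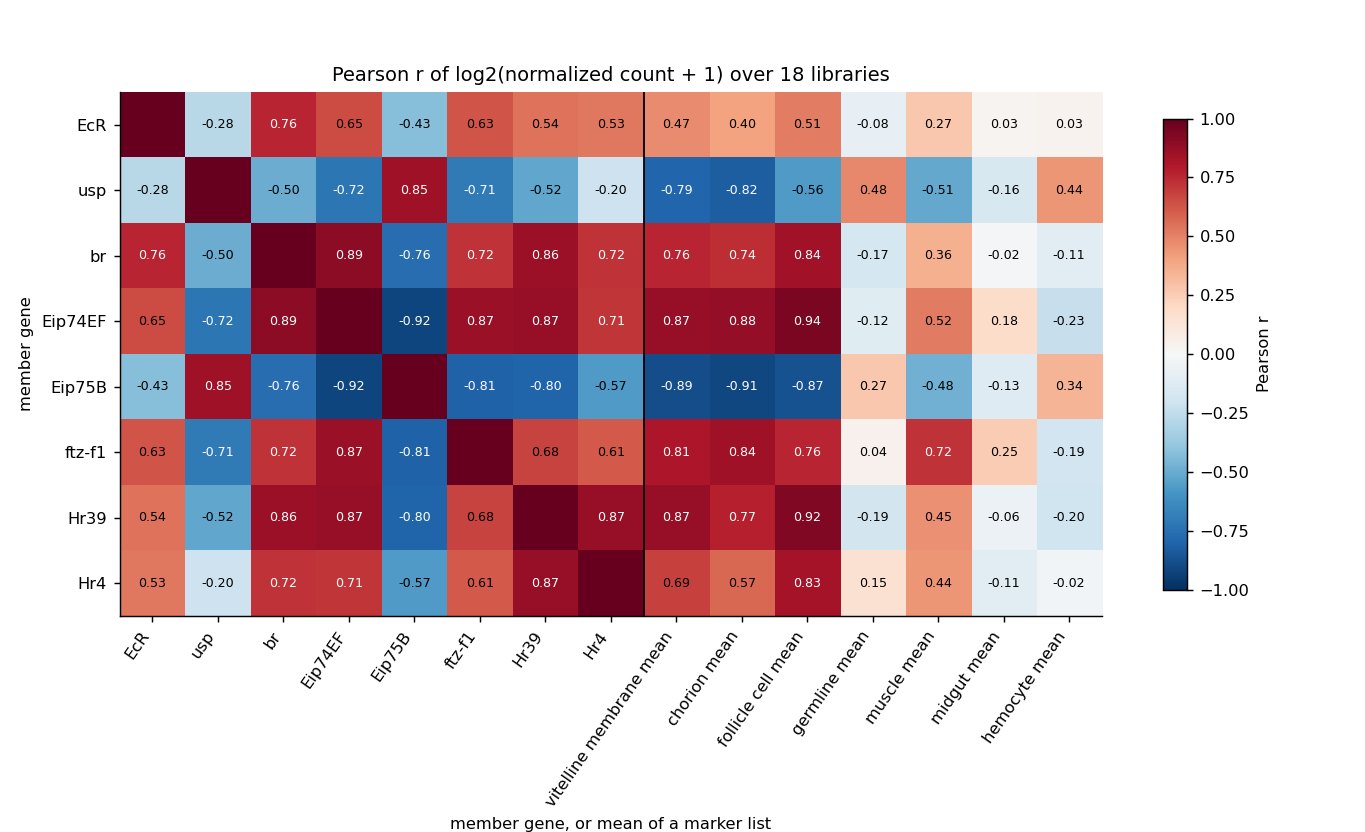
Pearson r of log2(normalized count + 1) over the 18 libraries, between the 8 genes (left of the line) and between each gene and the mean of a marker list (right of the line). Red is positive and blue is negative: Eip75B and usp are blue against the other response genes and against the eggshell lists, from -0.92 (Eip75B and Eip74EF) to -0.20 (usp and Hr4) among the genes.

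For each of the 8, the 2 most similar profiles were sought among 7718 other genes with a mean of at least 50 normalized counts. They were scrib and Prosap for EcR (r = 0.87 and 0.83), sigmar and SP1029 for usp (0.94 and 0.94), E2f1 and z for br (0.98 and 0.96), bves and CG17271 for Eip74EF (0.98 and 0.97), sev and Esp for Eip75B (0.97 and 0.97), CG43102 and CG11353 for ftz-f1 (0.94 and 0.93), Hmu and CG46321 for Hr39 (0.97 and 0.97), and rg and CG5026 for Hr4 (0.90 and 0.90). E2f1 encodes a transcription factor of the cell cycle, z the DNA-binding protein zeste, and sev a receptor tyrosine kinase known from the eye. Of these 16 genes Esp had the widest span of group means, with a mean of 901 normalized counts in WT, 1705 in LP and 6357 in Q79K-W80R.

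Genes that act around the receptor were then examined as lists. Of 15 other nuclear receptor genes 7 passed the filter, and the F test over the 6 groups called 4 of the 7, Hnf4, Hr38, Hr3 and Eip78C, against 21.3% of all genes. Q79K-W80R vs WT called the same 4 genes, against 23.1% of all genes. There Hnf4, a receptor that governs lipid use, rose (Log2FC 1.55 ± 0.07 SE, adjusted p = 6.79e-05), from 1618, 1521 and 1462 to 4472, 4508 and 4501 normalized counts. Hr3, the receptor that Eip75B opposes, fell (-1.43 ± 0.10 SE, adjusted p = 0.000229), from 3383, 3395 and 3751 to 1176, 1271 and 1486. Eip78C, another early gene of the hormone, fell too (-2.18 ± 0.18 SE, adjusted p = 0.000363). Hr38 rose (1.54 ± 0.39 SE, adjusted p = 0.0306) at a low level of 37 to 51. Eip78C also rose in WT against LP (1.09 ± 0.15 SE, adjusted p = 0.0406), from 162 to 185 up to 325 to 426. The median Log2FC of the list in mutants vs WT was 0.12 (all genes -0.01), and none of its members was called there.

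Among 16 genes of hormone import and response 13 passed the filter, and the F test called 3 of them, Kr-h1, ImpL2 and Oatp74D, a share near the 21.3% of all genes. Oatp74D, the ecdysone importer, had 313, 274 and 208 normalized counts in WT and 944, 760 and 694 in Q79K-W80R, where it rose (Log2FC 1.60 ± 0.18 SE, adjusted p = 0.00111). Kr-h1, a zinc finger factor best known from juvenile hormone signalling, fell against WT in T5 (-0.82, adjusted p = 0.0482) and, by -0.67, in Q79K-W80R (adjusted p = 0.0138), with 1642, 1544 and 1590 in T5 against 2532 to 3251 in WT. ImpL2, a secreted insulin-binding protein, rose against LP, with a Log2FC of 1.15 (adjusted p = 8.58e-05) in Q79K-W80R and 1.07 (adjusted p = 0.00256) in T15. Of the 13 genes 3 were called in Q79K-W80R vs LP and 3 in T15 vs LP, against 31.4% and 21.8% of all genes. In mutants vs WT none of the 13 was called, with a median Log2FC of -0.06.

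All 10 genes listed here as EcR cofactors passed the filter, and 1, ecd, was called by the F test, against 21.3% of all genes. Whether ecd acts as a cofactor of EcR is not shown by these data. This gene had 784 to 907 normalized counts in LP and 858 to 927 in WT against 972 to 1271 in the mutants. Its mutants vs WT Log2FC was 0.29 ± 0.08 SE (adjusted p = 0.064). In that comparison none of the 10 was called, with a median of -0.03.

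Of 9 genes of hormone synthesis and turnover 7 were matched and tested, and the F test called 4 of the 7, sro, Cyp18a1, spo and sad, against 21.3% of all genes. Cyp18a1, the enzyme that inactivates ecdysone, had 1251, 1351 and 914 normalized counts in WT and 4084, 3600 and 3277 in Q79K-W80R, where it rose (Log2FC 1.65 ± 0.16 SE, adjusted p = 0.000568). The synthesis genes spo and sro fell there (-0.87, adjusted p = 0.000439, and -0.95, adjusted p = 0.00101). WT against LP gave 1 call on the list, sro, which rose from 655, 894 and 896 to 1573, 1978 and 1708 (1.11 ± 0.16 SE, adjusted p = 0.0406). In T1 sro stood at 533 to 651, and for this gene T1 replicate 3 lay with the other T1 libraries. The median of the list in mutants vs WT was 0.18, and none was called.

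**Figure D5:**
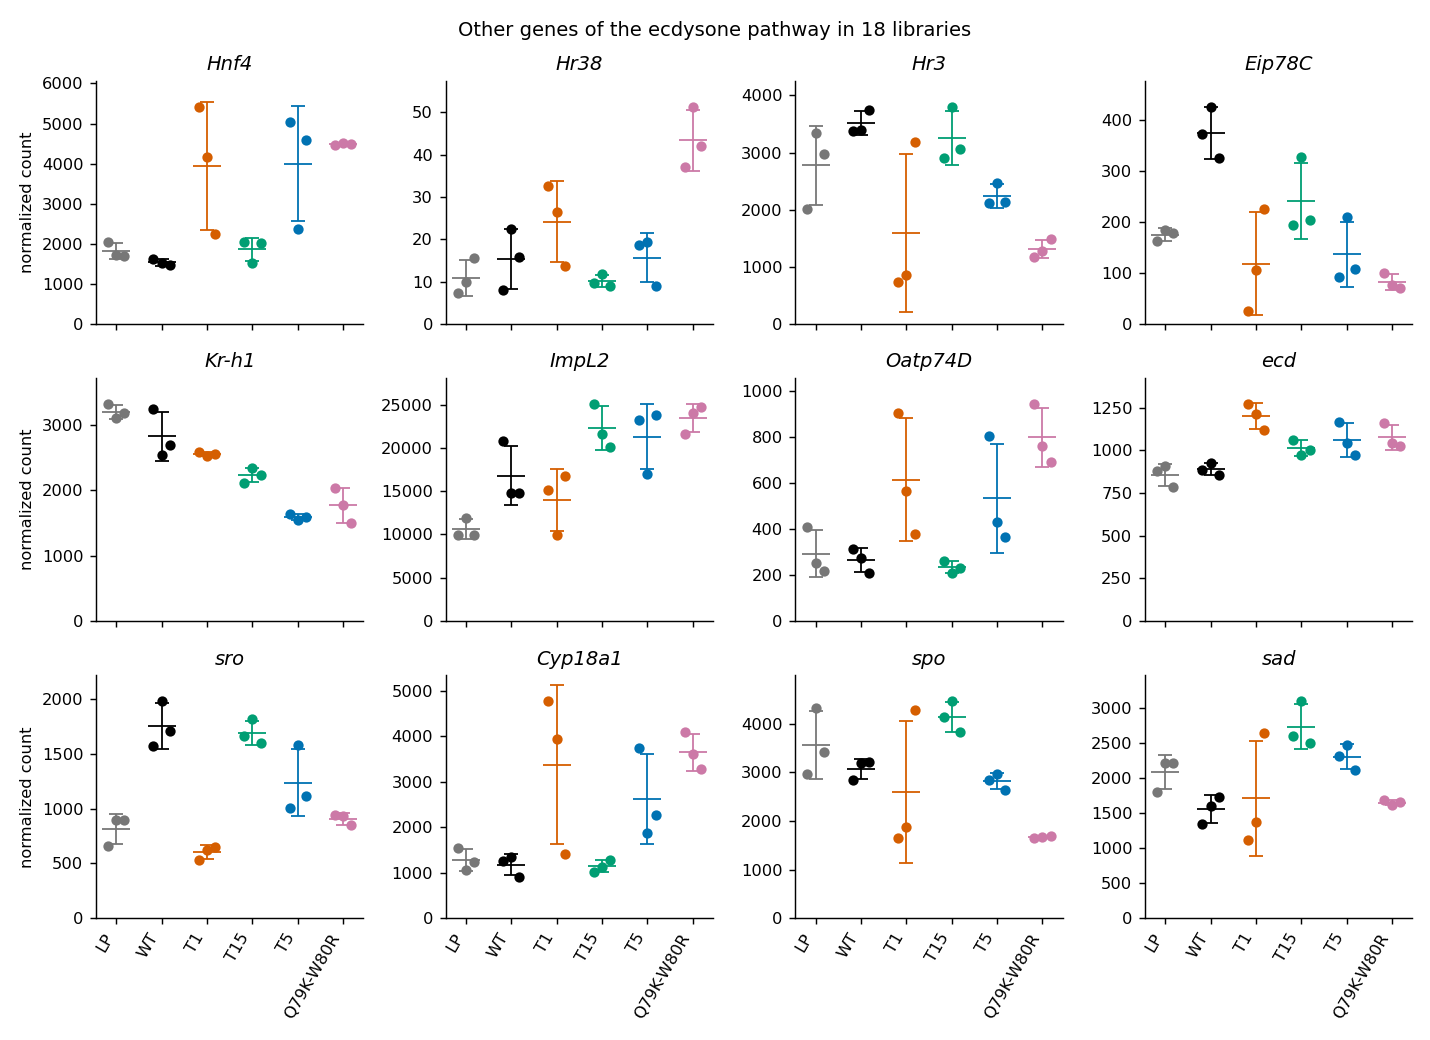
Normalized count in each library for 12 genes of the lists around the receptor, with the mean (long bar) and 1 SD (whiskers). Oatp74D, Hnf4 and Cyp18a1 are high in Q79K-W80R and in T1 replicates 1 and 2, all above the WT and LP points, and Hr3 and Eip78C are low in Q79K-W80R. T15 lies near LP for Hnf4 (1520 to 2032 in T15).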

How the data were processed

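Follicle cells were released from 30 pairs of ovaries with trypsin and collagenase, passed through a mesh and not sorted. RNA was sequenced with a stranded mRNA kit. Per the submitters' processing notes and the study's methods, bcl2fastq 2.18.0.12, Bowtie and RSEM 1.3.1 gave estimated counts, which the authors normalized with DESeq2. The deposited values are therefore a normalized signal per gene, not raw counts, and true depth is unknown from them. The genome build is not given in the sources used here, so no coordinates are printed. The record of Q79K-W80R names 2 of its 3 libraries, and the third was taken from the cross name they share.

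Symbols came from the reference annotation for 17372 of 17493 genes. Tests used limma 3.58.1 in R 4.3.3 on log2(normalized count + 1), for genes with at least 10 normalized counts in at least 3 compared libraries, with a trended variance, pooled arms for mutants vs WT, and Benjamini-Hochberg adjustment over all genes tested. Log2FC is on this scale, and "called" means an adjusted p under 0.05. The p-values measure the spread between crosses of a group, except in mutants vs WT. There the libraries of all mutant forms were treated as replicates of the same condition. The spread in that comparison therefore also holds differences between the forms. The fit was run on simulated counts with the same dispersion for every gene and no library that stands apart. That run therefore does not show how the fit behaves with libraries such as T1 replicate 3. Plots were drawn with matplotlib in Python.

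The 8 genes and the lists were chosen with earlier results of these data known. Named genes were the 8, the 2 most similar profiles of each by Pearson r, per pathway list up to 4 genes called in mutants vs WT or over the 6 groups, in order of the F test's p, and up to 3 abundant genes per marker list. Library numbers were checked for pairing by correlating deviations from group means. WT and T15 met the rule of r above 0.1 for every number (0.154, 0.173 and 0.117) and no other pair of groups did. The block therefore has a basis in the rule for T15 vs WT only. Elsewhere, as in WT vs LP, it is listed as an alternative setting without that basis. Alternatives were other pseudocounts (0.5 and 5), filters, scalings, no trend, all 18 libraries in the fit, the block, and leaving out libraries or forms.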

Additional observations from a re-analysis of the deposited data

How the results depend on the processing

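Of 912 values of the 8 genes under settings other than leaving out a library, 860 kept their direction and their side of the threshold, and of 792 leave-one-out values 693 did. No called value changed direction. The number of the 8 genes called moved as follows. Over the 6 groups it was 4, and 2 without the trend, 7 with T1 replicate 3 and T5 replicate 2 both left out, and 2 to 7 on leaving out single libraries. For mutants vs WT it was 1, and 3 with all 18 libraries in the fit, 2 without T1, 3 without T15, 0 without Q79K-W80R, 2 without both libraries that stand apart, and 0 to 2 on leaving out single libraries. For WT vs LP it was 0, and 1 with a pseudocount of 5, without the filter or after quantile normalization, and 0 to 1 by leave-one-out. Among the 4 mutant forms it was 0, 6 without both libraries that stand apart and 0 to 5 by leave-one-out. T1 vs WT gave 0, 3 with all 18 libraries and 0 to 5 by leave-one-out. T5 vs WT gave 1, 0 with a pseudocount of 0.5, with a mean of at least 50 or without the trend, 2 with all 18 libraries and 0 to 3 by leave-one-out. T15 vs LP gave 1, 0 without the trend or with all 18 libraries, and 0 to 1 by leave-one-out. T1 vs LP and T5 vs LP gave 0, with leave-one-out ranges of 0 to 4 and 0 to 5. Q79K-W80R vs LP gave 4, 1 with all 18 libraries and 2 to 5 by leave-one-out. The number of all genes called moved as well. By leave-one-out it was 1220 to 4410 over the 6 groups (main fit 2067) and 38 to 3784 among the 4 forms (230). Against WT it was 26 to 558 for the mutants (384), 0 to 697 for T1 (0) and 0 to 487 for T5 (66). Against LP it was 0 to 1399 for T1 (91), 31 to 972 for T5 (340) and 379 to 2172 for T15 (1936). For Q79K-W80R it was 1716 to 2989 (2851) and for WT 0 to 143 (38), both against LP. Why these counts moved was not tested, beyond the libraries each fit holds.

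With the library number as a replicate block, T15 vs WT gave 1 (ftz-f1) among 195 genes called, in place of 28. T5 vs WT gave 2 (Eip75B and ftz-f1) among 187 genes, in place of 66. T15 vs LP gave 2 (Hr39 and Hr4) among 2182 genes, in place of 1936. Q79K-W80R vs LP gave 5, with Hr39 gained (adjusted p = 0.0347), among 2691 genes, and Q79K-W80R vs WT gave 6, with usp lost (adjusted p = 0.117). Of these, only the numbers of T15 and WT paired by the rule.

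None of the values that changed direction was called. For EcR in T1 vs LP the Log2FC was 0.01 and became -0.026 after TMM rescaling and -0.016 after quantile normalization, and in T5 vs LP it was 0.02 and became -0.014 after quantile normalization. Leaving out single libraries gave -0.019 to 0.059 for EcR, -0.032 to 0.13 for usp and -0.49 to 0.0028 for br in T1 vs LP. It gave -0.034 to 0.0701 for usp, -0.39 to 0.023 for br and -0.05996 to 0.12 for Hr39 in T15 vs WT. It gave -0.00565 to 0.101 for EcR, -0.032 to 0.13 for Eip74EF and -0.22 to 0.073 for ftz-f1 in T15 vs LP, and -0.069 to 0.15 for br in T5 vs LP. With 3 libraries a group, changes of the size seen for EcR cannot be told from the spread between crosses.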
